A study of Mus musculus with 6 samples.

Results

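The cytosolic ribosome is built from a small 40S and a large 60S subunit, each an RNA core dressed with ribosomal proteins. An activated T cell has to make many new ribosomes before it can divide, and it does so through 2 largely separate gene sets: the ribosomal protein genes themselves, and the nucleolar genes that transcribe, trim and assemble ribosomal RNA. Most ribosomal protein mRNAs begin with a run of pyrimidines, the 5′ terminal oligopyrimidine (TOP) tract, through which mTORC1 signalling adjusts their translation, so that mRNA level and protein output need not move together.

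The ribosomal protein genes were taken from 6 one-colour whole mouse genome arrays by symbol: every non-control probe named Rpl or Rps followed by a digit, Rplp0 to Rplp2 or Rpsa, without the Rps6k kinases and without names marked as pseudogenes. This gave 145 probes for 85 genes out of 27376 gene names on the array, and the brightest probe of each gene, by its mean over the 6 arrays, stands for it. Of these, 33 belong to the 40S and 51 to the 60S subunit. The remaining gene, Rps19bp1, matched by name only: it encodes a nucleolar protein that binds Rps19 and is no ribosomal protein. Rps4y2 is likewise no ordinary member, since the current RefSeq table lists its transcript (NR_003634) as the transcribed pseudogene Rps4l. The group further holds 7 paralogs of canonical members (Rpl22l1, Rps27l, Rpl36al, Rpl39l, Rpl3l, Rpl7l1 and Rps4y2).

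The arrays were hybridised with RNA of T cells from C57BL/6 mice aged 6 weeks. In the 3 cKO samples the miR-31 locus was flanked by loxP sites (miR-31 fl/fl) and deleted by a Cre under the CD4 promoter, which acts in the whole αβ T-cell lineage, and the 3 control samples came from mice of the same age. The labels give no genotype for these, and the study describes its controls as miR-31 fl/fl, which would leave Cre out of every control. Naive CD4+CD25- cells, negative for the Foxp3 reporter and high for CD62L, had been sorted from spleen and polarized to induced regulatory T (iTreg) cells for 4 days, on bound anti-CD3 at 5 μg/ml, with anti-CD28 at 2 μg/ml, TGF-β1 at 5 ng/ml and, per the labels, IL-2 at 40 ng/ml. Each array is 1 mouse. No probe carries the name of miR-31, so these arrays give no check of the deletion.

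Levels are given as log2 of the background-subtracted signal relative to the 75th percentile of the same array, which lay between 987 and 1148 units. The 3 cKO arrays and control 1 shared a slide and control 2 and control 3 lay on another, so slide and genotype are partly confounded. The array of cKO 3 stood apart, with correlations of 0.948 to 0.963 with the controls across tested probes. T-cell identity was present, with all 6 T-cell markers and all 5 Treg markers measurable, and of the Treg markers Foxp3 had a log2 fold change of −0.62 (limma, unadjusted p = 0.032, adjusted p = 0.19). The 6 T-cell markers summed to 171 to 214 times the 75th percentile on cKO arrays and 153 to 162 times on control arrays, without overlap. In limma 4 of them were higher and 1 lower at an unadjusted p of 0.05, where 11.5% of all tested probes were higher and 11.4% lower. The 5 Treg markers summed to 171 to 195 times on cKO arrays and 138 to 175 times on control arrays. Of other lineages, the sums of B-cell, myeloid and NK-cell markers overlapped between the groups. Those of erythroid, epithelial and CD8 T-cell markers did not. The summed signal of 5 B-cell markers was 0.547 to 1.27 times the 75th percentile on the cKO arrays and 0.382 to 0.625 times on the control arrays, with Pax5 not above background on any array. The sums were 0.253 to 0.339 against 0.215 to 0.373 for 5 myeloid markers, 0.532 to 1.11 against 0.221 to 0.415 for 5 erythroid markers (Alas2 above background nowhere), 1.504 to 8.73 against 1.03 to 1.82 for 3 NK-cell markers (Klrb1c nowhere, with cKO 1 and cKO 3 at 7.87 and 8.73), 1.30 to 1.95 against 0.805 to 0.901 for 4 epithelial markers (Krt8 nowhere) and 3.87 to 4.34 against 4.42 to 5.61 for 2 CD8 T-cell markers. Of single markers, Cd3g and Cd3e of the T-cell receptor complex had log2 fold changes of 0.74 and −0.28, the Treg checkpoint receptor Ctla4 0.94, Cd8a −0.86 and Cd8b1 −0.18, Cd79b of B cells 0.60, Cd68 and Csf1r of myeloid cells 0.63 and 0.15, the globin Hbb-b1 2.10, Klrd1 of NK cells 1.88, and Cdh1 and Krt18 of epithelium 1.01 and 0.45, with 0 past an adjusted p of 0.05 in limma. The part of any of these in the results was not tested. In bulk RNA, fewer cells of a type and less RNA per cell cannot be told apart.

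As processed here, the mRNA of the ribosomal protein genes hardly differed between cKO and control iTreg cells. With normexp background correction and the 75th percentile, 81 of the 84 tested genes lay below 0, with a median log2 fold change of −0.24. With the slide as a term, 61 lay above 0, with a median of 0.05. Of the 85 genes, 84 were tested, a gene being tested where 3 or more arrays gave a signal well above background. Rpl3l, the muscle-type paralog of Rpl3, was well above background on 1 array only and was not tested. No gene passed an adjusted p of 0.05 (limma, Benjamini-Hochberg over all 22281 tested probes, lowest adjusted p = 0.14), against 0.242% of all tested probes. At an unadjusted p of 0.05, 2 genes were higher in cKO cells, Rpl13a and Rps4y2, and 0 were lower, while 11.5% of all tested probes were higher and 11.4% lower at the same threshold. The fold changes divided evenly, 42 above and 42 below 0, with a median log2 fold change of −0.005, an interquartile range of −0.08 to 0.04 and a median over all tested probes of −0.04. For 62 genes the log2 fold change was under 0.1 in size and for 78 it was under 0.2.

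**Figure D1:**
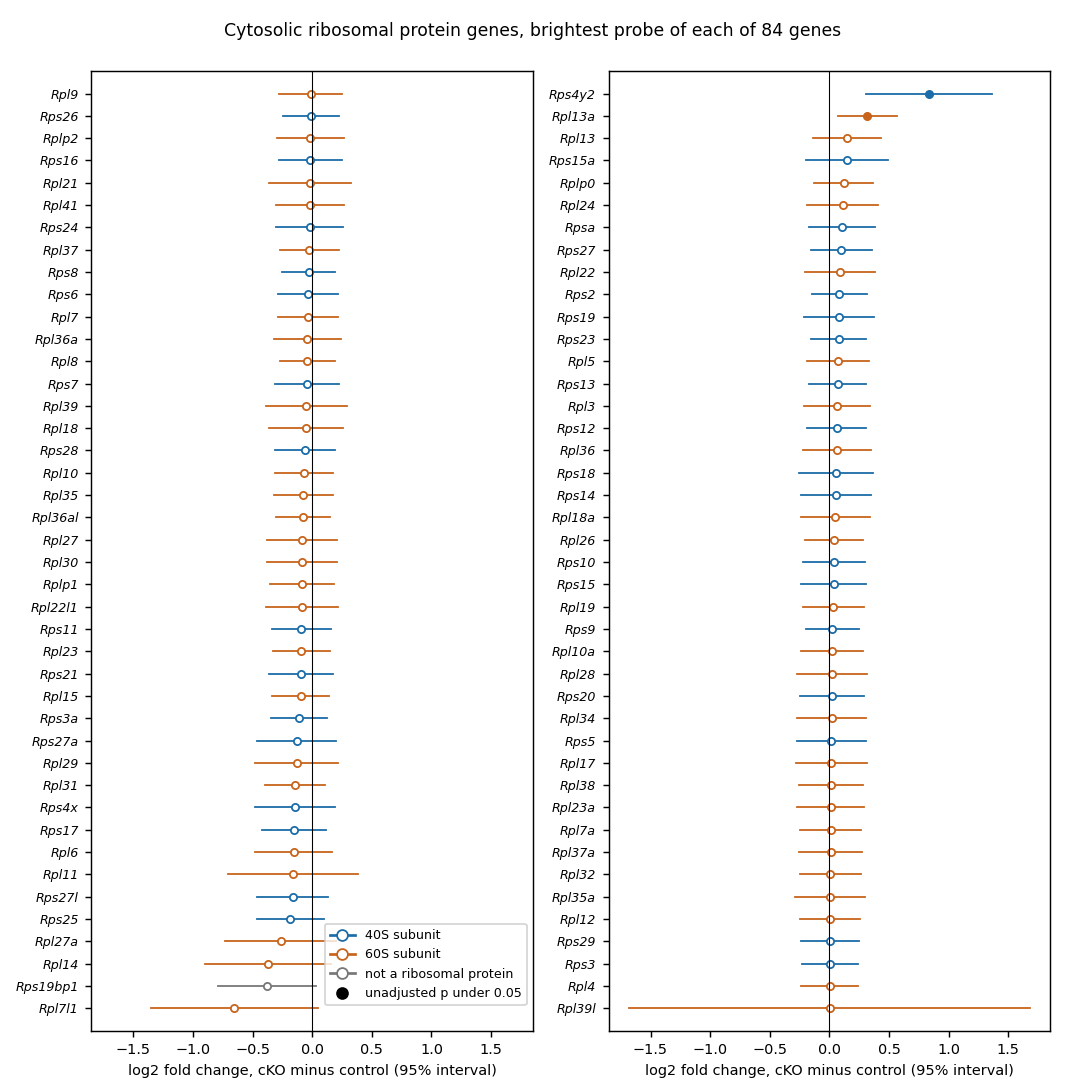
Log2 fold change of each of the 84 tested ribosomal protein genes, cKO minus control (x axis), with its 95% interval from limma. Colours give the subunit. The genes are sorted by value, the 42 below 0 in the left panel and the 42 above 0 in the right, and filled points mark the 2 genes with an unadjusted p under 0.05, Rps4y2 and Rpl13a.

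The intervals were narrow. For 77 of the 84 genes the whole 95% interval of the fold change lay within 1.5-fold in either direction, and for 81 within 2-fold. The 7 genes whose interval reached beyond 1.5-fold were Rps4y2, Rpl7l1, Rps19bp1, Rpl14, Rpl27a, Rpl11 and Rpl39l. Of all 22281 tested probes, 9418 had an interval wholly within 1.5-fold. The ribosomal protein probes were bright, with 73 of the 84 above a level of 6, and 0 spots on the arrays were saturated. Among 408 tested probes of that brightness, ribosomal ones included, 315 had an interval within 1.5-fold, against 72 of those 73 members. Of the 408, 7.11% were higher and 7.11% lower at an unadjusted p of 0.05. Among the 73 ribosomal protein genes above that level, 1 was higher, Rpl13a, and 0 were lower. Whether the response of the array flattens at such signals was not tested.

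The subunits were alike in this. Of 33 tested 40S genes 18 lay above 0, with a median log2 fold change of 0.01, and of 50 tested 60S genes 24 did, with a median of −0.01. The median over all members, each gene centred on its own mean over the 6 arrays, was −0.05, −0.04 and 0.08 log2 units on cKO 1, 2 and 3 and −0.05, −0.02 and 0.10 on control 1, 2 and 3. The highest array of each group, cKO 3 and control 3, thus stood at nearly the same height, and the groups overlapped. The within-group SD of a member had a median of 0.10 log2 units, that of all tested probes was 0.20, and above a level of 6 the medians were 0.10 for members and 0.12 for all tested probes.

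Among the proteins of the ribosomal stalk, which recruits the translational GTPases, Rplp0 had values of 8.24, 8.33 and 8.38 on the cKO arrays and 8.25, 8.11 and 8.24 on the control arrays. Its log2 fold change of 0.12 (SE 0.10) had an adjusted p of 0.48 in limma, and the groups overlapped. Its other probes gave −0.004 and 0.04. Rplp1 and Rplp2, the other stalk proteins, had log2 fold changes of −0.09 and −0.02. The 2 proteins that ride with 5S rRNA, and that bind Mdm2 when ribosome assembly fails, were Rpl5 at 0.07 and Rpl11 at −0.16 (95% interval −0.70 to 0.38), neither past the threshold. Rpl11 was uneven within both groups, with 7.71, 7.29 and 7.34 in cKO and 7.77, 7.17 and 7.87 in control cells.

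Of the 40S proteins named by role, Rps6, the substrate of the S6 kinases, had levels of 6.42, 6.42 and 6.59 in cKO and 6.46, 6.48 and 6.58 in control cells, and its log2 fold change was −0.03. Rps19 and Rps14, whose loss causes a failure of red cell production, had log2 fold changes of 0.08 and 0.06. Rps3, at the mRNA entry channel, had 0.002, and Rpsa, also known as the laminin receptor, 0.11. Of the 60S proteins, Rpl3 lies near the peptidyl transferase centre and had a log2 fold change of 0.07, Rpl10, which joins the subunit last, −0.07, and Rpl10a 0.02. Rpl38, which in embryos favours translation of a subset of mRNAs, had 0.01, and Rpl22, known for its role in αβ T-cell development, 0.09. None of these passed the test.

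To show the TOP tract in members of this group, the 20 bases on either side of the annotated RefSeq start (GRCm38.p6) are given for 6 of them that open with it, each chosen because it is named elsewhere in the text. Capitals mark the longest unbroken run of C and T within 10 bases of the start, which is the base right after the first 20. The window of Dkc1, a nucleolar gene taken up further on, is added because it has no such run.
Rps6 (chr4:86857348-86857387, minus strand): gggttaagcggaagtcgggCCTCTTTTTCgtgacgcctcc
Rps27 (chr3:90213629-90213668, minus strand): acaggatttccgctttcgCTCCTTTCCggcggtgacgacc
Rps15a (chr7:118116128-118116167, minus strand): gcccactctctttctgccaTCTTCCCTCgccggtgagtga
Rplp2 (chr7:141447631-141447670, plus strand): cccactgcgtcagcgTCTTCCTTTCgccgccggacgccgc
Rpl38 (chr11:114668560-114668599, plus strand): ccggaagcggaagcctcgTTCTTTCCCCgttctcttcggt
Rpl14 (chr9:120571497-120571536, plus strand): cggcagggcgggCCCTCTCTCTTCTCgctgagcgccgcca
Dkc1 (chrX:75095834-75095873, plus strand): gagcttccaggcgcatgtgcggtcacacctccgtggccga

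In each of the 6 members the base at the start is a C followed by at least 4 more pyrimidines, a pattern read on the transcript strand that 2.51% of all 32851 start windows in the RefSeq table hold. Other members named in the text, among them Rplp0, Rps3, Rps19 and Rpl13a, lack this pattern at the annotated start. A window was at hand for 64 of the 85 members only, under the 80% needed, so a share over the group is void and is not given. The members shown had log2 fold changes between −0.37 (Rpl14) and 0.15 (Rps15a). Rps27 was measured by a probe that the array's annotation places on chromosome 9 in mm9, whereas RefSeq places the gene on chromosome 3. The same holds for Rps29, on chromosome 2 in the array's annotation and on chromosome 12 in RefSeq, while for the other 82 members with both positions the chromosomes were the same. RefSeq lists pseudogenes named after 64 of the 85 members, 317 in all, so whether a probe also read near-identical copies is uncertain and was not tested.

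The canonical member that was highest in cKO cells relative to control was Rpl13a, a 60S protein also known as part of a complex that silences inflammatory mRNAs. Its probe (NM_009438) lies at chr7:52382460-52382635 on the minus strand of mm9 and, as 60 bases over 176 positions, spans a gap in the alignment. The level was 8.13, 8.13 and 8.29 on the cKO arrays and 7.83, 7.82 and 7.93 on the control arrays. Every cKO array was above every control array. The means were 8.18 ± 0.09 and 7.86 ± 0.06 (SD, n = 3 each), a 1.25-fold higher level (log2 fold change 0.32, SE 0.10, 95% interval 0.07 to 0.57), with an adjusted p of 0.17 in limma, so that it was not called. It was 0.35 within slide 1, where the comparison rests on control 1 alone, and 0.12 with normexp background correction and the 75th percentile.

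Rps4y2, the transcribed pseudogene related to the X-linked Rps4x, showed the largest fold change. Its probe (NR_003634) lies at chr6:148304018-148304077 on the plus strand of mm9. The level was −1.57, −1.33 and −2.02 on the cKO arrays and −2.21, −2.51 and −2.70 on the control arrays, well above background on all 6. No cKO value overlapped a control value. The log2 fold change was 0.83 (SE 0.22, 1.78-fold, limma adjusted p = 0.14). With array weights, which gave cKO 3 the lowest weight, it passed the threshold with 1.00 (limma adjusted p = 0.047), and over all alternatives its adjusted p ran from 0.047 to 0.73. Those weights called 710 of all 22281 tested probes, where 54 were called without them. The fold change was 0.45 with normexp and quantile normalization and 0.57 with the slide as a term. Rps4x, which encodes the protein in mouse cells, had a log2 fold change of −0.15 (SE 0.14), with overlapping groups.

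The next differences were small. Rpl13, a 60S protein, had a log2 fold change of 0.15 (adjusted p = 0.45) and Rps15a, a 40S protein, of 0.15 (adjusted p = 0.53 in limma). In Rps15a the highest array was cKO 3, with 7.85, against 7.38 and 7.58 on cKO 1 and 2 and 7.43 to 7.51 in control cells. Without cKO 3, Rpl13 was at 0.06, and the fold change of Rps15a shrank as well. A second Rpl13 probe gave 0.01 with overlapping groups. A second Rps15a probe, at a mean level of −4.02, gave −0.32, with every cKO value below every control value. By brightest probe, 3 members had every cKO array above every control array, Rpl13a, Rps4y2 and Rps2 (log2 fold change 0.08), where 15.9% of all tested probes with 6 values did. The reverse order was found in 5 members, Rpl7l1, Rps19bp1, Rps25, Rps3a and Rpl36al, against 20.7% of all such probes. A second Rps2 probe, at a mean level of 7.84, gave −0.07 with overlapping groups.

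The most negative fold change was that of Rpl7l1, a paralog of Rpl7 that acts in assembly of the 60S subunit. The level was 1.62, 1.42 and 0.52 on the cKO arrays and 1.76, 1.81 and 1.95 on the control arrays. All cKO values lay below the controls, and cKO 3 was lowest by far. The log2 fold change was −0.65 (SE 0.29, adjusted p = 0.23 in limma), and −0.32 without cKO 3. Its second, dimmer probe gave −0.43 (SE 0.23). Rps19bp1 had levels of 3.18, 2.93 and 2.57 in cKO against 3.23, 3.24 and 3.34 in control cells, again separate and again lowest on cKO 3, and a log2 fold change of −0.38 (SE 0.17, adjusted p = 0.24 in limma), which was −0.22 without cKO 3. A dimmer Rps19bp1 probe gave −0.21 (SE 0.15), with overlapping groups. Rpl14, a 60S protein, had −0.37 (SE 0.22), with cKO 1 at 2.39 among the controls at 2.29, 2.24 and 2.73. Rpl27a had −0.27 (SE 0.19) and Rps25, needed for internal initiation on some viral RNAs, −0.18 (SE 0.12), neither past the threshold. A dimmer Rps25 probe gave 0.26 (SE 0.24), with overlapping groups. Without 1 array, Rpl27a was at −0.08 (cKO 2) or −0.16 (control 3), Rps25 at −0.10 (cKO 3) and Rpl14 at −0.21 (cKO 3) or −0.22 (control 3).

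Levels of a paralog and its canonical gene were set against each other within each array, so that a shift common to both drops out. For 5 pairs both probes were tested. The difference between the changes, paralog minus canonical gene, was −0.61 for Rpl7l1 and Rpl7 (SE 0.38) and −0.26 for Rps27l and Rps27 (SE 0.16), each with separate groups and an exact 2-sided permutation p of 0.10, the smallest that 3 against 3 arrays allow (0.25 after Benjamini-Hochberg adjustment over the 5 pairs). Without cKO 3 these differences were −0.24 and −0.11. Rps27l is a target of p53, and Rpl7 itself had a log2 fold change of −0.04. The difference was −0.17 for Rpl22l1 and Rpl22 (SE 0.11, exact permutation p = 0.30), −0.04 for Rpl36al and Rpl36a (SE 0.11, p = 0.90 in the exact test) and 0.05 for Rpl39l and Rpl39 (SE 0.76, p = 1 in the exact test). Rpl39l, a paralog typical of testis, ranged from −4.46 to −1.62 among the cKO arrays alone, so the error of the last pair was the widest of the 5. In the 4 pairs with a negative difference, the cKO 3 array had the lowest value of all 6.

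**Figure D2:**
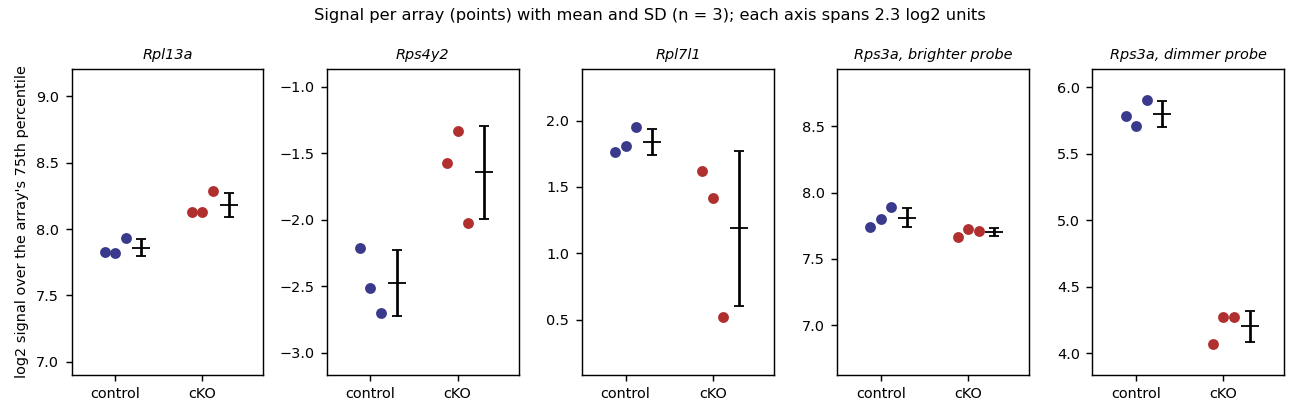
Signal of 5 probes on each array, as log2 relative to the array's 75th percentile (y axis, 2.3 log2 units in every panel), for control and cKO samples, with mean and SD beside the points (n = 3). Rpl13a and Rps4y2 are separately higher in cKO cells, Rpl7l1 is lower with cKO 3 far below the rest, and the 2 probes of Rps3a differ, the dimmer one at 4.07 to 4.27 in cKO and 5.71 to 5.91 in control cells.

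One gene was read differently by its probes. Rps3a (NM_016959, now Rps3a1 in RefSeq), a 40S protein, has 2 probes on chromosome 3, both of 60 bases and both shown here because the finding turns on them. Positions are on the minus strand of mm9, as the array's annotation gives them, with 25 positions for the brighter probe and 432 for the dimmer one, which spans a gap in the alignment.
Rps3a, brighter probe (chr3:85941845-85941869): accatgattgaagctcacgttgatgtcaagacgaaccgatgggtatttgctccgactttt
Rps3a, dimmer probe (chr3:85942027-85942458): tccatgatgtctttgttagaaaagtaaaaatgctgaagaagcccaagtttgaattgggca

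The dimmer probe read 4.07, 4.27 and 4.27 on the cKO arrays and 5.78, 5.71 and 5.91 on the control arrays, so that the groups lay over a log2 unit apart with little spread. Its log2 fold change was −1.60 (SE 0.11, 0.330-fold), with an adjusted p of 0.044 in limma. This was the only call among the 138 tested probes of ribosomal protein genes, where 0.242% of all tested probes were called. The brighter probe read 7.67, 7.73 and 7.71 in cKO and 7.74, 7.80 and 7.89 in control cells, and its log2 fold change was −0.11 (SE 0.10, adjusted p = 0.49). The log2 fold change at the dimmer probe was −1.58 within slide 1 and between −1.64 and −1.53 with any 1 array left out, and its adjusted p lay between 0.015 and 0.36 over the alternatives. Which of the 2 probes follows the Rps3a transcript was not tested, nor was a sequence difference under the dimmer probe. According to the methods the floxed allele was made in embryonic stem cells of another strain than the C57BL/6 that the labels give. The floxed line was then backcrossed to that background, and the study describes its controls as carrying the same floxed allele. This probe was singled out after its values were seen.

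Other probes of the same genes gave lower values where they were dim. Of 47 genes with several probes, 54 further probes were tested. The 23 of these above a level of 6 had a median log2 fold change of 0.01, all within 0.2 of the brightest probe of their gene. The 31 at or below that level had a median of −0.30, with 26 below 0, 6 lower and 0 higher at an unadjusted p of 0.05. That is 19.4%. Of the 11044 tested probes of all genes with levels between the quartiles of these 31, 12.1% were lower and 6283 lay below 0. Their median was −0.05. The 6 lower ones belonged to Rps3a, Rps12 (−0.89), Rpl29 (−0.48), Rps18 (−0.47), Rpl37 (−0.47) and Rps28 (−0.45). The array's annotation assigns those of Rps12, Rps18 and Rps28 to transcripts other than the RefSeq one (AK132208, ENSMUST00000172799 and ENSMUST00000173879). The brightest probes of these genes gave 0.06 for Rps12 and Rps18, −0.02 for Rpl37, −0.06 for Rps28, −0.11 for Rps3a and −0.13 for Rpl29. The level of 6 was set after the values were seen.

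**Figure D3:**
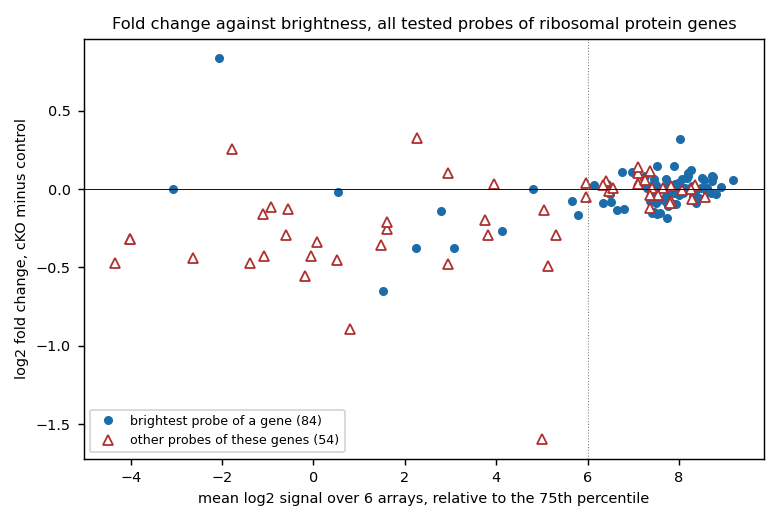
Log2 fold change, cKO minus control (y axis), against the mean level of each of the 138 tested probes of ribosomal protein genes (x axis, log2 relative to the 75th percentile). Circles are the brightest probe of a gene and triangles its other probes, and the dotted line marks a level of 6, to the right of which both kinds lie close to 0 while most triangles to the left lie below it.

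Genes that share the fate or the function of the ribosomal proteins were examined by lists. Of ribosomal proteins with other names, Fau, which carries Rps30, had a log2 fold change of 0.02 and Gnb2l1, the 40S scaffold now called Rack1, of 0.07, neither past the threshold. Of 15 translation factors and other genes with TOP mRNAs, 0 were higher and 0 lower at an unadjusted p of 0.05 in limma, where 11.5% of all tested probes were higher and 11.4% lower, and their median was −0.02. They ran from Npm1, a nucleolar chaperone, at −0.28 to Eef2, the translocation factor, at 0.25.

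Genes of ribosome production in the nucleolus mostly had fold changes below 0, with none past the adjusted threshold. Of 61 tested genes of RNA polymerase I, rRNA processing and subunit assembly, 55 had a log2 fold change below 0, and 26 were lower and 0 higher at an unadjusted p of 0.05. This is 42.6%, where 11.4% of all tested probes were lower, and 12297 of all 22281 had a log2 fold change below 0. The median log2 fold change of the 61 genes was −0.53. The lowest adjusted p was 0.13. The 26 became 1 with the slide as a term, where 2.65% of all tested probes were lower, and 5 with the methods' t-test (8.68%). Without control 1, 2 and 3 the count became 4, 7 and 3, where 8.43%, 5.63% and 5.16% of all tested probes were lower. In 45 of the 61 genes the highest cKO value was below the lowest control value, as in 20.7% of all tested probes with 6 values. The 30 genes of polymerase I and rRNA processing had 16 lower and a median of −0.55, and the 31 assembly factors had 10 lower and a median of −0.47.

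Among them, Dkc1, the pseudouridine synthase of rRNA and the most negative of the first list, had 0.34, 0.08 and −0.86 on the cKO and 0.72, 0.67 and 0.93 on the control arrays. Its log2 fold change was −0.92 (SE 0.31, limma adjusted p = 0.18). Ltv1, an assembly factor of the 40S subunit, was the most negative of the other list, at −0.98 (SE 0.35, limma adjusted p = 0.19). The highest fold change of the first list was that of Taf1b, of the polymerase I initiation complex, at 0.34 (SE 0.29, and 0.01 without cKO 2), and that of the assembly factors was Sbds, which frees the 60S subunit of Eif6, at 0.15 (SE 0.11), neither past the threshold. In Dkc1 and Ltv1, all cKO values lay below all control values and cKO 3 was lowest. Without cKO 3 they were at −0.56 and −0.65, and Ltv1 turned to 0.14 with normexp and the 75th percentile.

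The cKO arrays were unequal in this. The median over the 61 genes, each centred on its own mean, was 0.04, −0.11 and −0.72 on cKO 1, 2 and 3 and 0.23, 0.22 and 0.32 on control 1, 2 and 3. The cKO arrays therefore stood below the controls in all 3 cases, by unequal amounts. Without cKO 3 the median log2 fold change was −0.28, with 31 genes lower, where 10.9% of all tested probes were lower. On slide 1, against control 1 alone, it was −0.49, with 57 of 61 below 0, but 1 gene lower at an unadjusted p of 0.05. On the same arrays the ribosomal protein genes stood at −0.05, −0.04 and 0.08, so that cKO 3 was lowest for the nucleolar genes and highest of the cKO arrays for the ribosomal proteins. The sets differed in brightness. Of the 61 nucleolar genes 0 lay above a level of 6 (median level 2.16), against 73 of the 84 members (median 7.75). The 11 members at or below 6 had a median log2 fold change of −0.14, with 8 below 0, and all tested probes at or below 6 had −0.04. The part of brightness in this contrast was not tested.

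**Figure D4:**
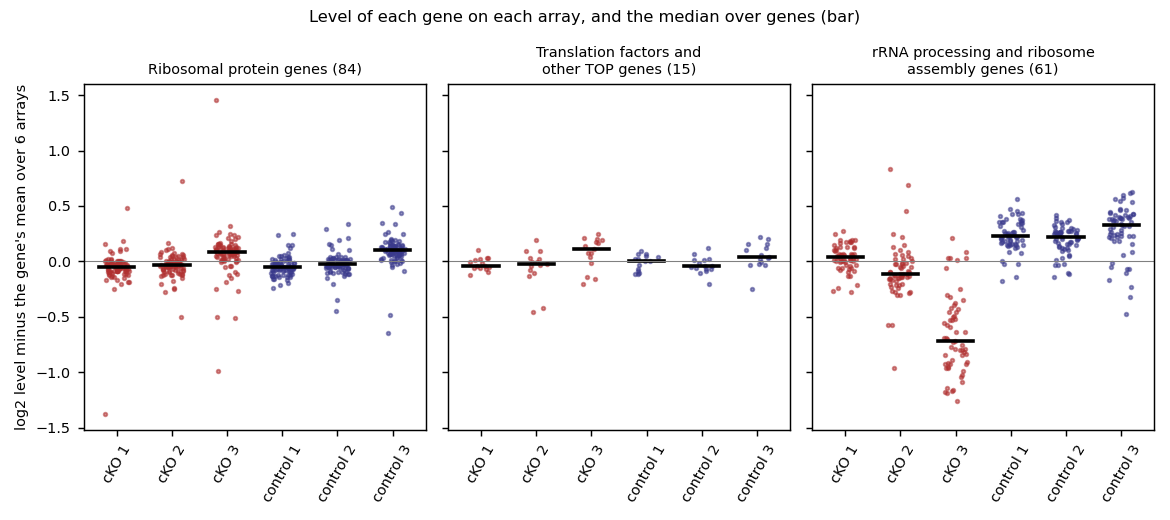
Level of each gene on each array as log2 minus its own mean over the 6 arrays (y axis), for 84 ribosomal protein genes, 15 translation factors and other TOP genes, and 61 genes of rRNA processing and ribosome assembly. Bars are medians: those of the ribosomal protein genes lie between −0.05 and 0.10 on all arrays, while that of the nucleolar genes is −0.72 on cKO 3.

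**Figure D5:**
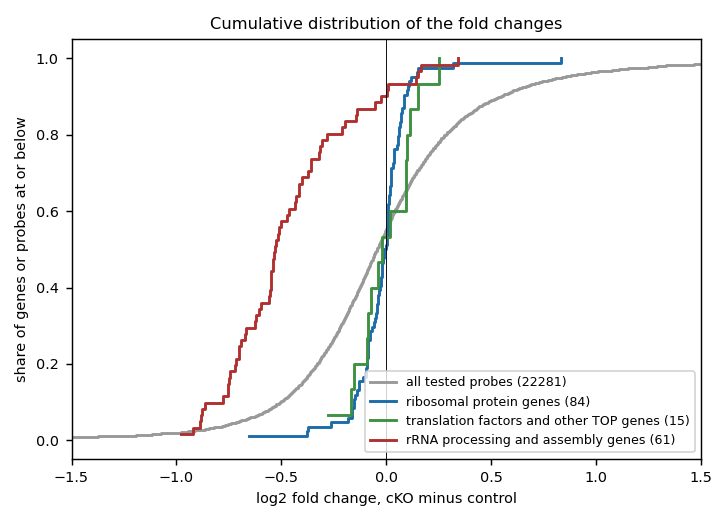
Cumulative share (y axis) of log2 fold changes, cKO minus control (x axis, shown from −1.5 to 1.5), for all 22281 tested probes and 3 gene lists. The curve of the 84 ribosomal protein genes is steep around 0 (median −0.005), and that of the 61 rRNA processing and assembly genes is shifted to the left (median −0.53).

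Regulators of both sets gave a mixed picture. Of 21 tested genes of mTORC1, S6 kinase and Myc signalling, 4 were higher and 1 lower at an unadjusted p of 0.05, where 11.5% of all tested probes were higher and 11.4% lower, and the median was 0.003. Eif4ebp1, the mTORC1 target that holds back cap-dependent translation, had 4.61, 5.22 and 4.88 on the cKO and 4.31, 4.33 and 3.70 on the control arrays (log2 fold change 0.79, SE 0.24, limma adjusted p = 0.16). Myc, which drives transcription of both ribosomal protein and nucleolar genes, had 4.53, 4.61 and 3.68 against 4.80, 4.75 and 4.73 (log2 fold change −0.49, SE 0.25, limma adjusted p = 0.29, and −0.19 without cKO 3). The groups were separate in both genes, and Myc was lowest on cKO 3.

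The even split of the ribosomal protein genes depended on how background and scale were treated. With normexp background correction and the 75th percentile, 3 of the 84 lay above 0 and 81 below, and their median was −0.24, while the median of all tested probes moved to 0.11. With the slide as a term 61 lay above and 23 below 0, with a median of 0.05. Quantile normalization gave 32 above and 52 below, with a median of −0.02. Statements on direction therefore hold for single genes only as far as given above.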

How the data were processed

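The authors labelled RNA with Cy3, hybridised it to 6 one-colour Agilent arrays (Cre-deleted cKO and control iTreg cells, 3 each) and deposited Feature Extraction intensity values, background-subtracted but not normalized between arrays. The software version is 10.7.3.1 per the file headers and 9.1 in the submitters' processing notes. They also deposited a table of log2 values with equal medians of 6.15 per array. Labels and methods name different RNA purification kits and IL-2 doses.

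Here, outlier spots (123 to 140 of 45018 per array) were dropped, spots of a probe averaged, and log2 signals taken relative to each array's 75th percentile. The 22281 probes that 3 or more of the 6 arrays read well above background were fitted in limma 3.58.1 (lmFit, eBayes; R 4.3.3) without covariates, with Benjamini-Hochberg adjustment over all of them, after the fits had been tested on simulated data. The number of arrays limits the precision. Names and positions (mm9) come from the array's annotation, and 80 of 85 members were matched to RefSeq (GRCm38.p6) by accession.

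Named are members with an adjusted p under 0.05, the 5 largest rises and falls, members listed by role, and each further list's largest rise and fall. Members and lists were chosen with earlier results of these data known. Rps2, Rps4x, the dimmer probes and the genes with wide intervals were named after their values were seen. Alternatives covered scaling, background correction, the authors' table, filters, averaging of probes, the methods' t-test, moderated variants, array weights, slide, replicate number and leaving out each array. One gene of a further list is not reported here.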

Additional observations from a re-analysis of the deposited data

How the results depend on the processing

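The count of ribosomal protein genes past an adjusted p of 0.05 was 0 (limma) and became 1 with the mean over the probes of a gene (Rps3a, adjusted p = 0.048) and 1 with array weights (Rps4y2). In all, the former setting called 44 of 14357 genes and the latter 710 of 22281 probes. The count of 2 higher at an unadjusted p of 0.05 became 1 with normexp and the 75th percentile, without the filter and with the replicate block, and 0 with the slide as a term. With 1 array left out it was 1 to 2, at 1 without control 1 or control 2. The count of 0 lower became 4 with normexp and quantile normalization, 2 with probe means, 1 with trend and robust moderation and 2 with array weights, and was 0 to 3 with 1 array left out (3 without cKO 1, 1 without cKO 3). The median of −0.005 became −0.24 with normexp and the 75th percentile. For 21 of the 31 named members the sign turned under at least 1 alternative, all with a log2 fold change of 0.18 or less in size.

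The count of 26 lower nucleolar genes became 15 with the median as scaling point, 6 with normexp and the 75th percentile, 16 without the filter, 5 with the methods' t-test, 16 with the replicate block and 1 with the slide as a term, and was 3 to 42 with 1 array left out (42 without cKO 1, and 4, 7 and 3 without control 1, 2 and 3). Of all tested probes, 8.32%, 2.56%, 5.64%, 8.68%, 7.30% and 2.65% were lower in these settings, in the order given. With 1 array left out it was 5.16% to 15.3%. With array weights 1 nucleolar gene passed an adjusted p of 0.05 in limma, where 710 of all 22281 tested probes did. The adjusted p of the dimmer Rps3a probe exceeded 0.05 with normexp and the 75th percentile, without the filter, with the t-test, with the replicate block (0.23), with the slide term and when any 1 array was left out (0.056 to 0.16). These alternatives were applied to nucleolar genes, regulators and that probe after seeing the data.

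The paralog difference of Rpl36al and Rpl36a turned to 0.034 with quantile normalization, 0.011 with normexp and quantile normalization and 0.030 with the authors' table, and was −0.112 to 0.064 with 1 array left out. That of Rpl39l and Rpl39 was −0.598 to 0.628 with 1 array left out. That of Rpl7l1 and Rpl7 was −0.87 to −0.24, that of Rps27l and Rps27 −0.37 to −0.11 and that of Rpl22l1 and Rpl22 −0.23 to −0.09. The log2 fold change of Ltv1 turned to 0.14 with normexp and the 75th percentile. Rpl39l was not tested where all 6 arrays had to be well above background. The replicate numbers showed no pairing, with correlations of deviations of −0.14, 0.01 and −0.19 for same-numbered samples. The cause of these shifts was not tested.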
